A study of Homo sapiens with 4 samples.

Results

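The liprins are scaffold proteins with coiled coils in the first part of the chain and SAM domains in the second. Liprin-α proteins (PPFIA1 to PPFIA4) bind the LAR family of receptor tyrosine phosphatases and help to assemble the presynaptic active zone in neurons and sites of cell adhesion and secretion at the edge of epithelial cells. Liprin-β proteins (PPFIBP1 and PPFIBP2) can pair with liprin-α.

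All probes for these 6 genes were followed in A549 cells, a human lung adenocarcinoma line, treated with embelin, a benzoquinone with an alkyl chain. The 6 genes were selected on measured values, chiefly the large difference in PPFIA4 between embelin and control, and the rest of the family was taken with it. Their values in this contrast are therefore given as a description, with no test. They were represented by 12 of the 50238 probes that are not control spots, and by 6 of the 30970 gene or transcript names on the array. The 2 control samples are labelled untreated, with no word on a vehicle, and the 2 embelin samples received 15 µM for 4 h. Cells of both groups stood in medium with 2% serum. Each sample was labelled with Cy3 and hybridized to 1 array. The labels number the replicates 1 and 2 but do not say that they came from separate cultures, so the spread between them may be technical.

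All 4 arrays lay on 1 slide, the controls at positions 4 and 1 (replicates 1 and 2) and the embelin samples at positions 2 and 3. The controls thus held the ends of this run of positions and the embelin samples the middle. In each group 1 array had a noisier background: 66.7% of probes were well above background on control 1 but 50.3% on control 2, and 66.4% on embelin 2 but 51.2% on embelin 1. Of the markers of A549 and lung epithelial carcinoma, 11 of 11 were well above background on all 4 arrays. The same held for 0 of 4 endothelial, 1 of 5 fibroblast, 2 of 6 leukocyte and 6 of 7 neuronal markers (of the endothelial and fibroblast markers, CDH5 and DCN were not well above background on any array). The summed signal of the A549 and lung epithelial markers was 990612 and 1030206 in the controls and 892263 and 900518 with embelin, lower on both embelin arrays. That of the neuronal markers ran from 22191 to 32357 in the controls and from 28902 to 33913 with embelin, so the groups overlapped. The part of either sum in the liprin values was not tested.

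The probes are 60 bases long. PPFIA4 had a single probe, P420692, matched to transcript NM_015053, so no second probe could be set against it. PPFIBP2 had 2 probes, but they share a stretch of 30 bases (the last of P409623 and the first of P150807) and are not independent readings of the transcript. These stretches are shown because the results for the pair of genes with the largest differences rest on them.
PPFIA4 probe P420692, bases 1 to 30: ggaggtgttaagaagagaactctgtgcaaa
PPFIBP2 probes P409623 and P150807, shared stretch: tgtctagtaattcttgatgttcatcttcag

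PPFIA4, liprin-α4, is a form known mainly from brain and muscle. On a scale where the 75th percentile of every array was made equal, its signal was 28.9 on control 1, 11.6 on control 2, 1071 on embelin 1 and 1357 on embelin 2. Both embelin arrays lay far above both controls. The control 2 signal was not well above background, so the level in untreated cells was measured on 1 of 2 arrays. In log2 the mean was 4.19 ± 0.93 (SD, n = 2) in the controls and 10.24 ± 0.24 (SD, n = 2) with embelin. The difference was 6.04 (SE 0.49 in a limma fit across all kept probes), a 66.0-fold higher signal. The closest control and embelin arrays differed 37.1-fold and the farthest 117-fold. With control 2 raised to the lowest signal that was well above background on that array, the difference was 4.88 in log2, or 29.5-fold. With another background correction (normexp), which adds an offset of 50 to every signal, it was 3.94 in log2. An added offset shrinks the fold of a dim signal by construction. The size of the difference thus depended on how the dim control signal was treated. Its direction was the same in all 16 alternatives, but the gene had been selected on this difference. Several alternatives, such as the replicate number or the slide position in the fit, left the difference at 6.04 by design. Nothing is read from that count. Within the pair of arrays with the lower background (control 1 and embelin 2) the difference was 5.55, and within the noisier pair it was 6.53. As whole cultures were measured, more cells with PPFIA4 RNA and more of it per cell cannot be told apart.

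**Figure D1:**
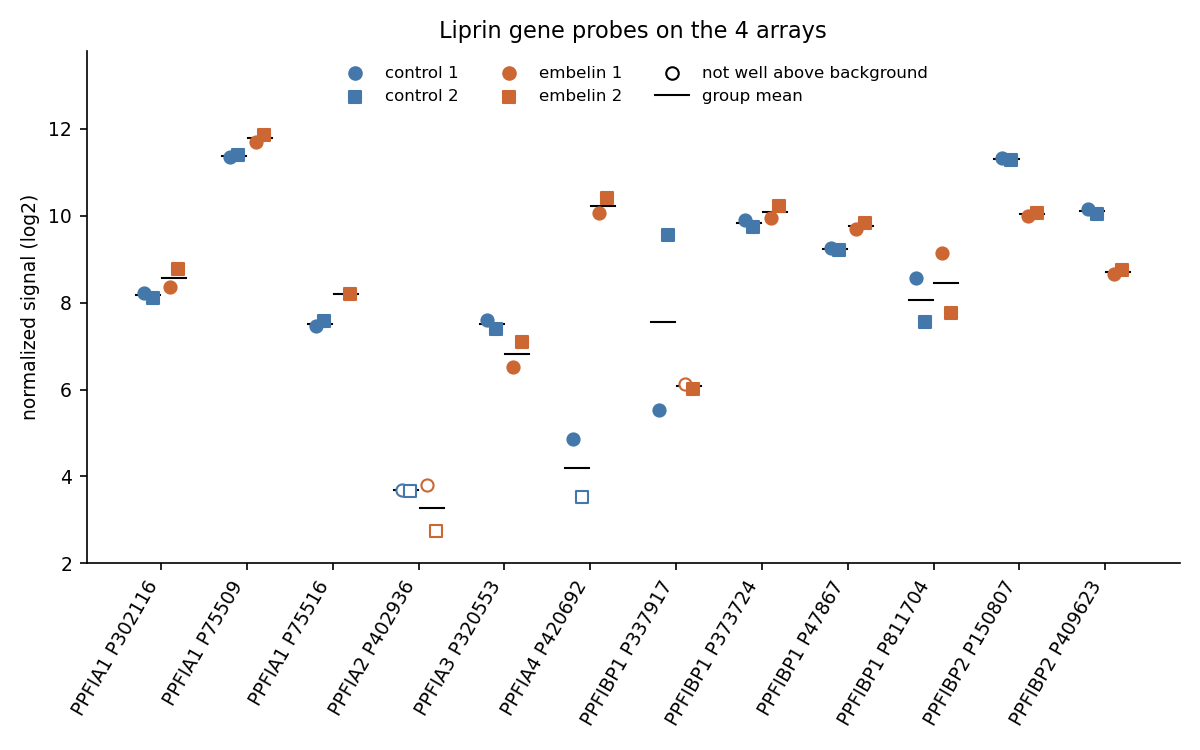
Normalized log2 signal (vertical axis) of each of the 12 liprin gene probes (horizontal axis) on the 2 control and 2 embelin arrays; bars are group means and open symbols are signals not well above background. PPFIA4 lies at 4.85 and 3.53 in the controls and at 10.06 and 10.41 with embelin, and PPFIA2 has open symbols on all 4 arrays. Heights of different probes are not comparable as levels.

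Of the 6 genes, 5 had a probe well above background on both arrays of a group and entered the fit. At the brightest probe of each gene the groups did not overlap in 5 of 5 genes. The groups did not overlap in 51.8% of the 17298 genes with a value on all 4 arrays. Since the genes were selected on this contrast, nothing is read from this count. Of the 5 differences 3 were positive and 2 negative, with a median of 0.26 in log2 beside -0.06 over all genes tested.

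PPFIBP2, liprin-β2, stood on the opposite side from PPFIA4. At the brighter probe, P150807, the signal was 2576 and 2499 in the controls and 1021 and 1074 with embelin. At P409623 it was 1144 and 1062 in the controls and 403.6 and 428.6 with embelin. Every embelin value was below every control value at both probes, and the replicates lay close together. The log2 difference was -1.28 (SE 0.17, 2.42-fold lower) at the first probe and -1.41 (SE 0.18, 2.65-fold lower) at the second. The gene's difference stayed between -1.24 and -1.34 over 15 alternatives, the lowest of them the mean over both probes, and at the brighter probe it was -1.26 and -1.29 within the lower-background and the noisier pair of arrays.

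PPFIA1, liprin-α1, is the widely expressed member, known for its place at focal adhesions and its gene copies in the amplified cyclin D1 region of some carcinomas. Its brightest probe, P75509, read 2608 and 2707 in the controls and 3330 and 3736 with embelin. P302116, matched to the other transcript NM_177423, read 300.9 and 277.8 in the controls and 330.3 and 441.4 with embelin. At both probes the embelin arrays lay above the controls by little. P75516 read 175.5 and 190.4 in the controls and 294.2 on embelin 2. Its spot on embelin 1 was marked as an outlier by the scanner software and was left out. The log2 differences were 0.41 (SE 0.18), 0.40 (SE 0.23) and 0.69 (SE 0.25, from 3 arrays). All 3 probes thus gave a difference of the same sign, from 1.32-fold to 1.61-fold.

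PPFIA2 and PPFIA3 are the liprins known best from brain. The PPFIA2 probe read 13.0 and 12.7 in the controls and 13.9 and 6.7 with embelin. It was not well above background on any array, so it was not tested and no fold is given. PPFIA3 read 194.8 and 169.3 in the controls and 91.8 and 136.7 with embelin, well above background on all 4 arrays. Its groups did not overlap, yet the 2 embelin arrays lay farther from each other than the nearer of them did from the lower control. The log2 difference was -0.70 (SE 0.27, 1.62-fold lower) and ran from -0.98 to -0.41 over 15 alternatives.

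PPFIBP1, liprin-β1, partner of liprin-α1 at the cell edge and of the KANK proteins, was read by 4 probes that did not give 1 answer. The brightest, P373724, read 961.3 and 859.3 in the controls and 982.9 and 1201 with embelin (log2 difference 0.26, SE 0.21). P47867 read 609.4 and 595.2 in the controls and 834.0 and 914.1 with embelin (0.54, SE 0.18). Both probes were slightly higher with embelin. P811704 read 379.5 and 187.8 in the controls and 566.1 and 215.5 with embelin (0.39, SE 0.61), so its groups overlapped. P337917, matched to transcript NM_177444, read 46.2 and 758.1 in the controls and 70.1 (not well above background) and 64.5 with embelin, again with overlap. A single array, control 2, set its difference of -1.48 (SE 1.39), which was 0.54 without that array. With the mean over its probes the gene's difference was -0.07, the only 1 of 15 alternatives with a negative sign.

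**Figure D2:**
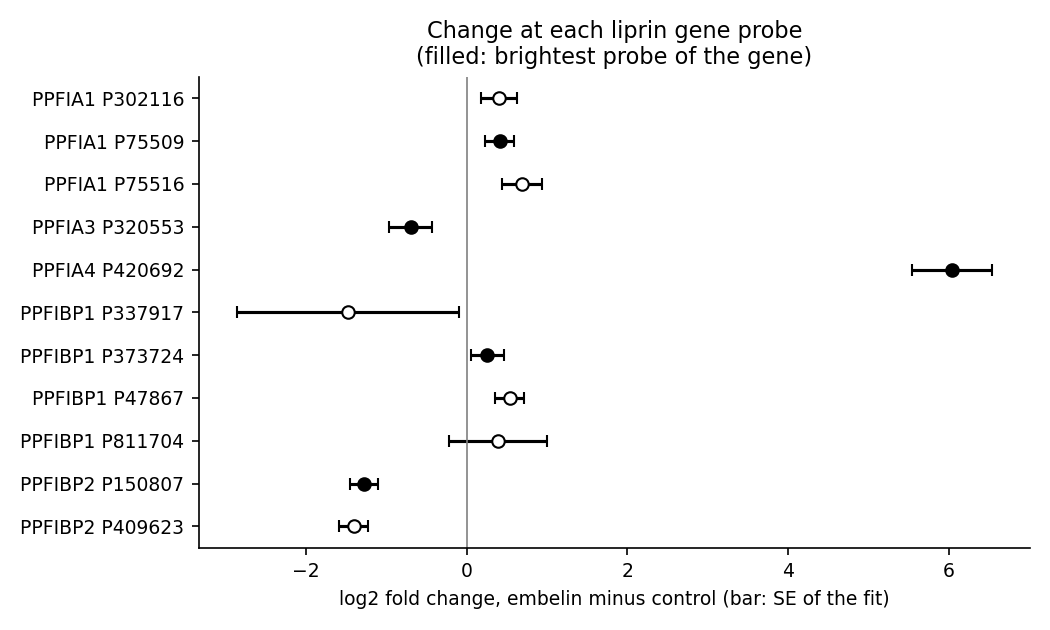
Log2 fold change, embelin minus control (horizontal axis), at each of the 11 liprin gene probes kept for the fit (vertical axis), with the SE of the fit as bars and filled points for the brightest probe of a gene. PPFIA4 stands at 6.04, both PPFIBP2 probes at -1.28 and -1.41, and the 4 PPFIBP1 probes on both sides of 0.

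The nearest genes on either side of each liprin gene in RefSeq that had a kept probe were read for comparison. Beside PPFIA4, TMEM183A was at 11.63 and 12.12 in the controls and 11.69 and 11.94 with embelin in log2, a difference of -0.06 (SE 0.25). ADORA1, the adenosine A1 receptor gene on the other side, had overlapping groups and a difference of -1.22 (SE 0.66). Its signal was well above background on only 1 of 2 embelin arrays, so the size of this difference is uncertain. Neither neighbour had a difference near that of PPFIA4. Beside PPFIBP2, CYB5R2 differed by 0.04 (SE 0.17) and ZNF215 by 0.69 (SE 0.28), with ZNF215 well above background on only 1 of 2 control arrays. Beside PPFIA1, FADD, the adaptor of death receptors, differed by -0.73 (SE 0.17) and CTTN, the gene of the actin-binding protein cortactin, by 0.26 (SE 0.36), while PPFIA1 itself differed by 0.41. Beside PPFIA2, CCDC59 differed by 0.59 (SE 0.16), while for OTOGL neither control array gave a signal well above background, so no fold is given. TRPM4 and C19orf73 beside PPFIA3 differed by -0.87 (SE 0.37) and -0.06 (SE 0.26), and MRPS35 and BMAL2 beside PPFIBP1 by 0.15 (SE 0.16) and 0.20 (SE 0.19). None of these 12 neighbours passed limma's test after adjustment, with adjusted p from 0.127 to 0.937. Over all genes tested limma called only 1.81%, so nothing is read from this count.

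The genes of 15 direct partners of the liprins were then considered, of which 12 were tested. Limma called 0 of the 12 after adjustment, and 1 (PPP2R5C, lower) had an unadjusted p under 0.05. Over all 17649 genes tested limma called 1.81%, and 3442 had such an unadjusted p. The methods' t-test gave 0 of the 12 after adjustment, as over all genes. Without adjustment it gave 0 of the 12, beside 2737 of 17298 over all genes. Nothing is read from these counts. Of the LAR receptors that bind liprin-α, PTPRF differed by 0.10 (SE 0.20, adjusted p = 0.848) and PTPRS by -0.20 (SE 0.26, adjusted p = 0.729), while PTPRD was not well above background on both arrays of either group. RIMS1, an active zone scaffold, and KIF1A, the kinesin that carries synaptic vesicle precursors, also missed the filter. The active zone protein ERC1 differed by 0.16 (SE 0.32) and the adaptor CASK by -0.71 (SE 0.27, adjusted p = 0.262). At the cell cortex, PHLDB2, which anchors CLASP proteins, differed by -0.02 (SE 0.16), CLASP1 by -0.22 (SE 0.27), CLASP2 by 0.04 (SE 0.19) and KANK1, which ties talin to liprin-β1, by -0.21 (SE 0.23). Their groups overlapped in each of these 4 genes. GIT1, an ARF GTPase-activating protein, differed by -0.57 (SE 0.33) and its partner ARHGEF7, the exchange factor β-PIX, by 0.59 (SE 0.23). The kinesin KIF7 differed by -0.19 (SE 0.41). PPP2R5C, a targeting subunit of protein phosphatase 2A, differed by -0.75 (SE 0.22, limma adjusted p = 0.189) at its brightest probe. At its probes P369694 and P76898 the difference was only -0.12 (SE 0.23) and -0.12 (SE 0.46). The median difference of the 12 was -0.19, beside -0.06 over all genes tested.

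Over 7 lists of partner genes, 90 genes in all, 61 were tested, 1 was called higher and 3 lower, and the median difference was -0.04. Over all 17649 genes tested, limma called 1.81% in either direction, 1.25% higher and 0.561% lower. PPP2R5B, another targeting subunit of protein phosphatase 2A, had log2 signals of 9.25 and 9.51 in the controls and 11.63 and 11.83 with embelin. It rose by 2.35 (SE 0.19, limma adjusted p = 0.0302), and it was the single call of 5 B56 subunits in this fit, with the brightest probe for each gene. SLITRK6, a cell surface ligand of LAR receptors, was at 11.52 and 11.01 in the controls and 8.86 and 8.35 with embelin, a difference of -2.66 (SE 0.30, limma adjusted p = 0.0462). It was the single call among 12 tested ligands and co-receptors in the same fit. KANK2, which links talin to the cortical microtubule complex, was at 14.07 and 14.12 against 12.60 and 12.58, a difference of -1.50 (SE 0.16, limma adjusted p = 0.0448), and was the single call of 12. RIMS3, a short RIM protein of the active zone, was at 8.79 and 8.79 against 7.34 and 7.46, a difference of -1.39 (SE 0.16, limma adjusted p = 0.0489), and was the single call of 13 scaffolds. All 4 genes had groups that did not overlap, as in 51.8% of all genes. They were named because limma called them in this same contrast, so nothing is read from this. The 3 falls lay close to the threshold, and when each probe was fitted on its own SLITRK6 (limma adjusted p = 0.0525), KANK2 (0.0536) and RIMS3 (0.0597) were no longer called, while PPP2R5B was (0.0348). In that fit IL1RAP, a co-receptor on the ligand list chosen for mention after its values were seen, was called higher at 1 of 4 probes (P148762, difference 2.07, SE 0.21, limma adjusted p = 0.0465). Its other probes had differences of 1.77, 1.53 and -0.29. TANC2, on the scaffold list and likewise chosen after its values were seen, was called at none of its probes. Their differences were 1.06, 1.52, 1.99 and 2.51, the smallest at the brightest probe. Of the 13 scaffolds, 6 had a positive and 7 a negative difference at the brightest probe.

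In the remaining 3 lists limma called 0 genes: 0 of 2 LAR phosphatases, 0 of 8 genes of the GIT and PIX complex and 0 of 9 kinesin genes. At an unadjusted p under 0.05 the counts were 0, 2 and 0 by limma and 0, 2 and 2 by the methods' t-test, which gave 0 after adjustment in all 3. Over all genes 3442 of 17649 had such a p by limma and 2737 of 17298 by the methods' t-test. The 4 partner calls rested on all 4 arrays: they were lost with any 1 array left out. The calls over all genes were lost as well, so this was not particular to the partner genes. Such a fit leaves 1 array in a group.

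**Figure D3:**
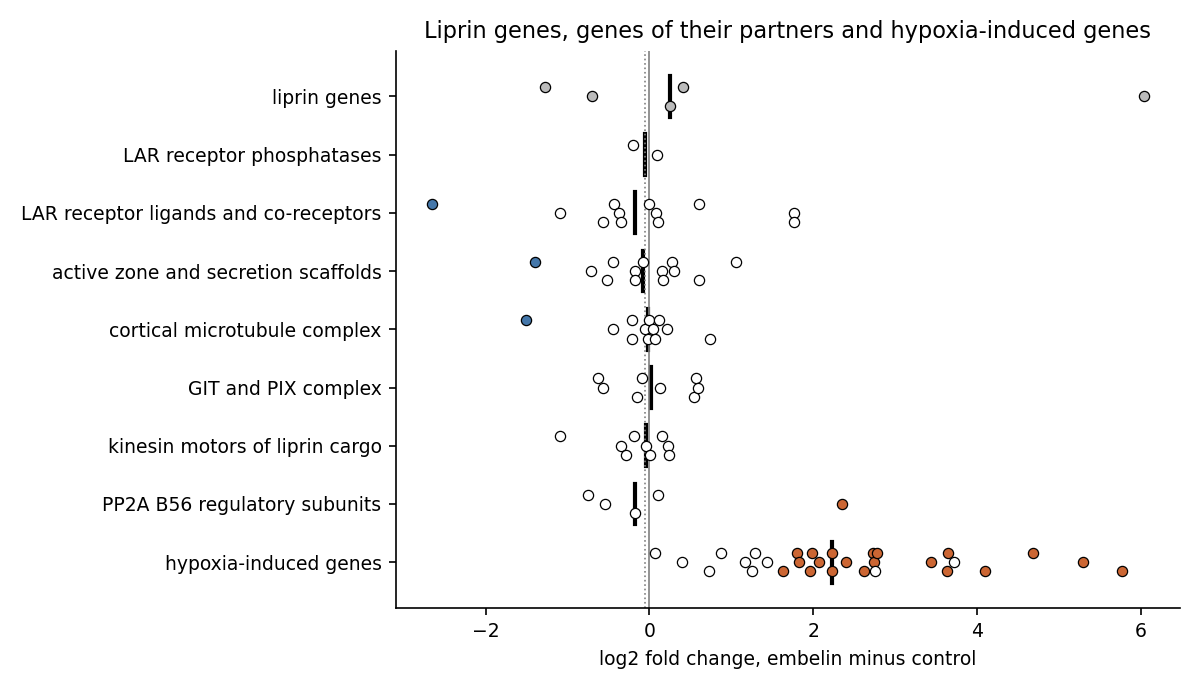
Log2 fold change, embelin minus control (horizontal axis), of each gene in the fit (brightest probe) in the liprin family, in 7 lists of partner genes and in the hypoxia list (rows). Thick bars are list medians, the dotted line is the median of all genes, and coloured points passed limma's test after adjustment (orange higher, blue lower; liprin genes, given with no test, in grey). The partner lists centre near 0 and the hypoxia list at 2.23.

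PPFIA4 stands on published lists of genes that rise when oxygen is low, and so a list of 30 hypoxia-induced genes was set beside it. The list was chosen with earlier results of these data known, so its counts and p-values are not an independent test. All 30 were tested, 20 were called higher and 0 lower, and 0 of the 30 had an unadjusted p under 0.05 for a fall. These shares stand beside 1.25% higher and 0.561% lower over all genes. The methods' t-test called 0 after adjustment, as over all genes, and 26 had an unadjusted p under 0.05. The 20 calls were 0 with any 1 array left out, with slide position or the replicate number in the fit and with no filter on dim probes, where 25 to 28 had an unadjusted p under 0.05. The median difference was 2.23 in log2, beside -0.06 over all genes tested. The largest were HK2, hexokinase 2, at 5.77 (SE 0.19, limma adjusted p = 0.0204), ANGPTL4, a secreted inhibitor of lipoprotein lipase, at 5.29 (SE 0.17, limma adjusted p = 0.0204) and NDRG1, a stress-responsive gene, at 4.69 (SE 0.18, limma adjusted p = 0.0204). PPFIA4 differed by 6.04, above the largest member of this list, though its difference was 4.88 with the dim control raised, between NDRG1 and ANGPTL4. The labels give no oxygen level and name no hypoxic group.

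Across the 4 arrays the 5 genes whose centred log2 profile lay nearest to that of PPFIA4 were MMP1, an interstitial collagenase (distance 0.73 in log2), ATF3, a stress-induced transcription factor (0.82), HK2 (0.85), ANGPTL4 (1.13) and SLC16A6, a monocarboxylate transporter family gene (1.26). MMP1 was the one most like PPFIA4 in its low end as well. Its log2 signal was 4.73 and 3.76 in the controls and 10.45 and 9.84 with embelin, and it too was well above background on 1 of 2 control arrays. HK2 was at 6.61 and 6.42 in the controls and 12.18 and 12.41 with embelin. With 4 arrays in 2 groups this likeness is mostly a likeness in the size of the difference, from 4.87 for SLC16A6 to 5.90 for MMP1, and no test was made of it. HK2 and ANGPTL4 are also on the hypoxia list, so that their nearness and that list are not separate observations.

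**Figure D4:**
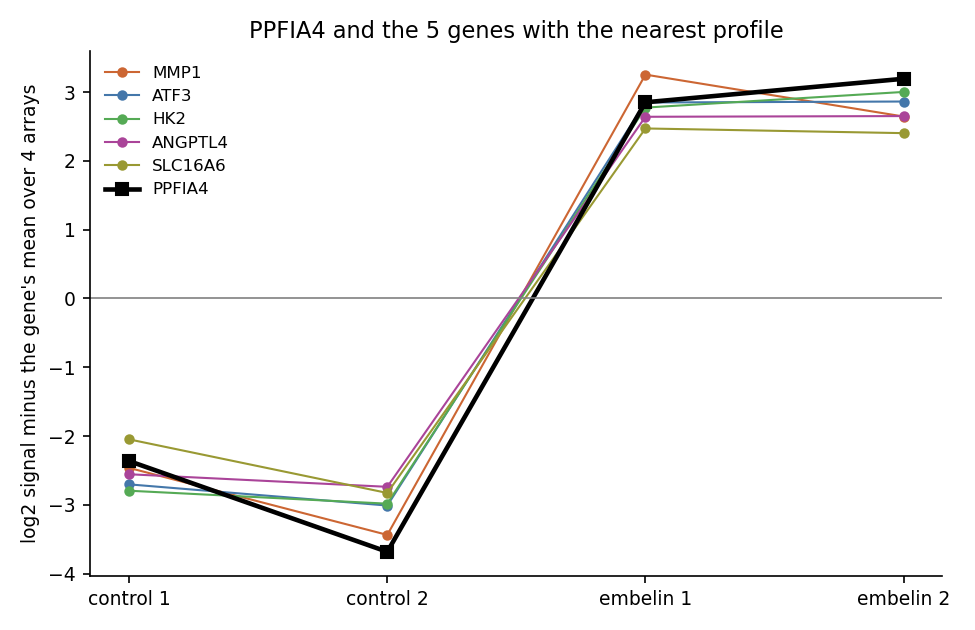
Log2 signal minus the gene's own mean over the 4 arrays (vertical axis) on each array (horizontal axis) for PPFIA4 (black) and the 5 genes with the nearest profile; lines join the values of 1 gene and carry no order in time. All 6 lie below 0 on both control arrays and above 0 on both embelin arrays, and PPFIA4 has the lowest point, on control 2, the array where its signal was not well above background.

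Because PPFIA4 and 20 of the 30 hypoxia genes were higher with embelin, promoters were read in RefSeq (build GRCh38.p14), which holds 12 promoter windows for the 6 liprin genes. The 250 bases before the start were searched on both strands for ACGTG, the core that HIF binds, for GCGTG, its other form, and for CACGTG, which holds ACGTG on both strands and is also the site of many bHLH factors. PPFIA4 has 1 CACGTG, whose first base is at position -119 from the start, and 1 GCGTG at -84. PPFIBP2, whose signal was lower with embelin, has 1 CACGTG at -63 in the first of its 5 windows. These 2 windows are shown, with the letters found in capitals.
PPFIA4, chr1:203026241-203026490, + strand: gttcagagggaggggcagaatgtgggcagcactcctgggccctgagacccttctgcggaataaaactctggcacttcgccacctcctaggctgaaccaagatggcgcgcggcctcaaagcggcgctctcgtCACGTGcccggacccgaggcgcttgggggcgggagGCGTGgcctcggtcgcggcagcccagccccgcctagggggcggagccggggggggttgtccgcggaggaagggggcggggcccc
PPFIBP2, chr11:7513749-7513998, + strand: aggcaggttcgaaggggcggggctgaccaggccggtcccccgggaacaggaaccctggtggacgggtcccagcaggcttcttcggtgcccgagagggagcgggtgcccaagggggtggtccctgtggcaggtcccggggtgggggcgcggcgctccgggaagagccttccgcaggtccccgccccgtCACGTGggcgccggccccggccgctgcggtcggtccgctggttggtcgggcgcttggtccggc

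Both windows are rich in G and C (71.6% and 76.0%). ACGTG stands in 18.5% of all 35116 promoter windows of this length, GCGTG in 32.2% and CACGTG in 6.34%. For the 34 windows of the hypoxia list the shares were 55.9%, 52.9% and 20.6%, with no matching for base composition and no test. Among the liprin windows ACGTG was also found in PPFIA1, at -5, and in 1 of 3 windows of PPFIA2, at -129, but not in PPFIA3 or PPFIBP1. GCGTG was also found in PPFIA1 at -158, PPFIA3 at -23 and the second window of PPFIBP2 at -121. The same window of PPFIA2 held 2 GCGTG, the nearer at -149. Over the 12 liprin windows the shares were 33.3% for ACGTG, 41.7% for GCGTG and 16.7% for CACGTG. The letters were present before a gene with higher signal, a gene with lower signal, a gene with little difference and a gene not well above background. A link between the letters and the signals was not tested. A match is a run of letters only, and no binding was measured.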

How the data were processed

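RNA from 2 control and 2 embelin samples was measured on single-colour (Cy3) Agilent arrays. The deposited spot intensities come from Agilent Feature Extraction, version 10.7.3.1 in the file headers, with background subtracted and trends within the array corrected, and a table of the same intensities averaged per probe. Neither was normalized between arrays. The deposited flags for outliers and for signals well above background were used as given.

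Intensities were scaled to an equal 75th percentile (721.2, 601.5, 647.7 and 739.1 before scaling on control 1, control 2, embelin 1 and embelin 2), floored at 1 before log2 was taken. Outlier spots were left out (47, 296, 743 and 87 on these arrays) and replicate spots averaged. A probe entered the fit if both arrays of either group were flagged well above background, the brightest probe stood for a gene, and groups were compared in R 4.3.3 with limma 3.58.1 (lmFit, eBayes; Benjamini-Hochberg over 17649 genes; threshold 0.05). Probes for the liprin genes were also fitted among all 26145 kept probes, and their SE comes from that fit. No probe spot was saturated. Precision is limited by having 2 arrays per group: a typical (median) gene had a pooled SD of 0.21 in log2. On simulated data with 17379 genes and 200 changed ones, 85 to 106 were recovered with 1 to 10 false calls. The changed genes were given larger differences than those of every tested liprin gene except PPFIA4. The recovery of smaller differences was not simulated.

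Genes named were every liprin gene at every probe, 15 direct partners, up to 3 called genes with the largest difference in each list, the 5 genes with the smallest Euclidean distance from the array-centred PPFIA4 profile, and the nearest neighbours in RefSeq. The liprin genes, the lists and the tests were chosen with earlier results of these data known. The alternatives tried were normexp background correction (offset 50), quantile normalization, the deposited table, outlier spots kept, the replicate block, slide position as a covariate, each array left out, other filters, other ways to join probes, the methods' t-test, and eBayes with trend and robust. A percentile without outlier spots, a raised dim control and pairs of arrays with like background were added after the data were seen. Sequences came from the deposited probe annotation and RefSeq promoters. Protein sequences were not used here, and 1 cell type marker that was counted is not reported here by name.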

Additional observations from a re-analysis of the deposited data

How the results depend on the processing

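The log2 difference of PPFIA4 (6.04) kept its sign in all 16 alternatives, several of which could not change it. It moved by more than the spread between replicates to 3.94 with normexp background correction (offset 50) and to 4.88 with the dim control raised. It ran from 5.38 to 6.70 when 1 array was left out. Calls over all genes (320) numbered 699 with normexp, 159 in the deposited table, 177 with outlier spots kept, 764 with the filter on all 4 arrays and 1061 with eBayes trend and robust. They numbered 240 with quantile normalization and 430 with the percentile taken without outlier spots. Calls among partner genes (4) numbered 2 with quantile normalization, 1 in the deposited table, 1 with outlier spots kept, 2 with the mean over probes, 2 with each probe on its own and 7 with trend and robust. Hypoxia calls (20) ran from 15 to 27 over these settings. All 3 counts were 0 with no filter, with the slide position as a covariate, with the methods' t-test after adjustment, and with any 1 array left out (lowest 0, highest 0). With the replicate block, which pairs samples by number only, all 3 counts were also 0. Without adjustment, p was under 0.05 for 3743 genes under the block, 3053 with slide position, 2345 with no filter, 2134 to 3077 with 1 array left out and 2737 by the t-test. The replicate numbers are not known to pair the samples (correlation of deviations between same-numbered samples 0.175, with 2 pairs). The cause of these changes was not tested. The scaling moved the median of all genes between -0.03 and -0.06. With 2 arrays per group, and signals near background for PPFIA2 and for PPFIA4 in the controls, differences of the size of the replicate spread could not be resolved in the liprin genes.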
